A study of Mus musculus with 40 samples.

Results

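Transcript abundance was compared between 9-month-old mice that lack Tsc1 in skeletal muscle fibers (9mTSCmKO) and control littermates of the same age (9mCON). These were 10 of the 40 libraries of the series, with 5 mice a group and 1 library per mouse. All 10 mice received vehicle by intraperitoneal injection for 3 days before the extensor digitorum longus (EDL), a fast muscle of the lower hindlimb, was taken. Tsc1 was floxed in both groups (Tsc1fl/fl), and the Cre recombinase that removes it was present in TSCmKO alone. The promoter that drives Cre is not given in the sources used here. All 40 libraries of the series were fitted together, and 13543 genes that reached 1 CPM (counts scaled to a common library total) in 5 or more libraries were tested. Total counts ran from 12234422 to 19535160 in 9mCON and from 15936309 to 20867776 in 9mTSCmKO. Replicates varied by a biological coefficient of variation of 24.6% in 9mCON and 28.1% in 9mTSCmKO, and 9mTSCmKO replicate 1 correlated less with its group (median r = 0.937 across genes) than the other 9 libraries with theirs (0.969 to 0.979).

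TSC1 and TSC2 form a complex that holds back mTORC1, the kinase complex that couples amino acids, energy and growth factors to protein synthesis and growth. Without TSC1 the complex is unstable and mTORC1 stays active when nutrients are scarce. In muscle fibers, mTORC1 is known to promote translation and ribosome production and to restrain autophagy, the route by which cells deliver their own proteins and organelles to lysosomes. The comparison asks what sustained mTORC1 activity is accompanied by in muscle at 9 months of age.

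Tsc1 (ENSMUSG00000026812, protein-coding, chromosome 2, 28641228 to 28691167, GRCm38) was at 51.3, 62.0, 92.3, 89.7 and 122 CPM in the 9mCON libraries, replicates 1 to 5, and at 35.8, 27.6, 26.5, 28.6 and 24.4 CPM in the 9mTSCmKO libraries. The groups did not overlap, and 9mCON varied more than 9mTSCmKO. The log2 fold change was -1.55, SE 0.171, adjusted p = 2.33e-09, by the quasi-likelihood F-test of edgeR with adjustment by the Benjamini-Hochberg method over all genes tested, which is also behind every adjusted p below. Fiber RNA and RNA of cells that keep Tsc1 are mixed in a whole muscle, and fewer cells of a type and less RNA per cell cannot be told apart in such samples.

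Of all genes tested, 5133 or 37.9% passed an adjusted p of 0.05. There were 2580 higher genes (19.1%) and 2553 lower genes (18.9%) in 9mTSCmKO, and the median log2 fold change of all genes was -0.02. With both groups fitted alone, without the other libraries to set the spread, 2710 genes passed, 1486 of them higher and 1224 lower. The shares over all genes are the background for every list below, and 43 lists of named function were counted against them. The lists were chosen with earlier results of these data known, so that a share above the background is a description. Most genes named were chosen for a large change without overlap between the groups, so that their separation is a description. Levels are TMM-scaled CPM, given as mean ± SD over 5 libraries, and changes are log2 fold changes of 9mTSCmKO against 9mCON with a standard error (SE). This SE was taken as the absolute change divided by the square root of its F statistic. Contractile genes of slow fibers, oxidative stress defence, chaperones, ATF4 targets and the proteasome lay at the rising end, while collagens, fast-fiber genes and calcium release genes lay at the falling end.

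**Figure D1:**
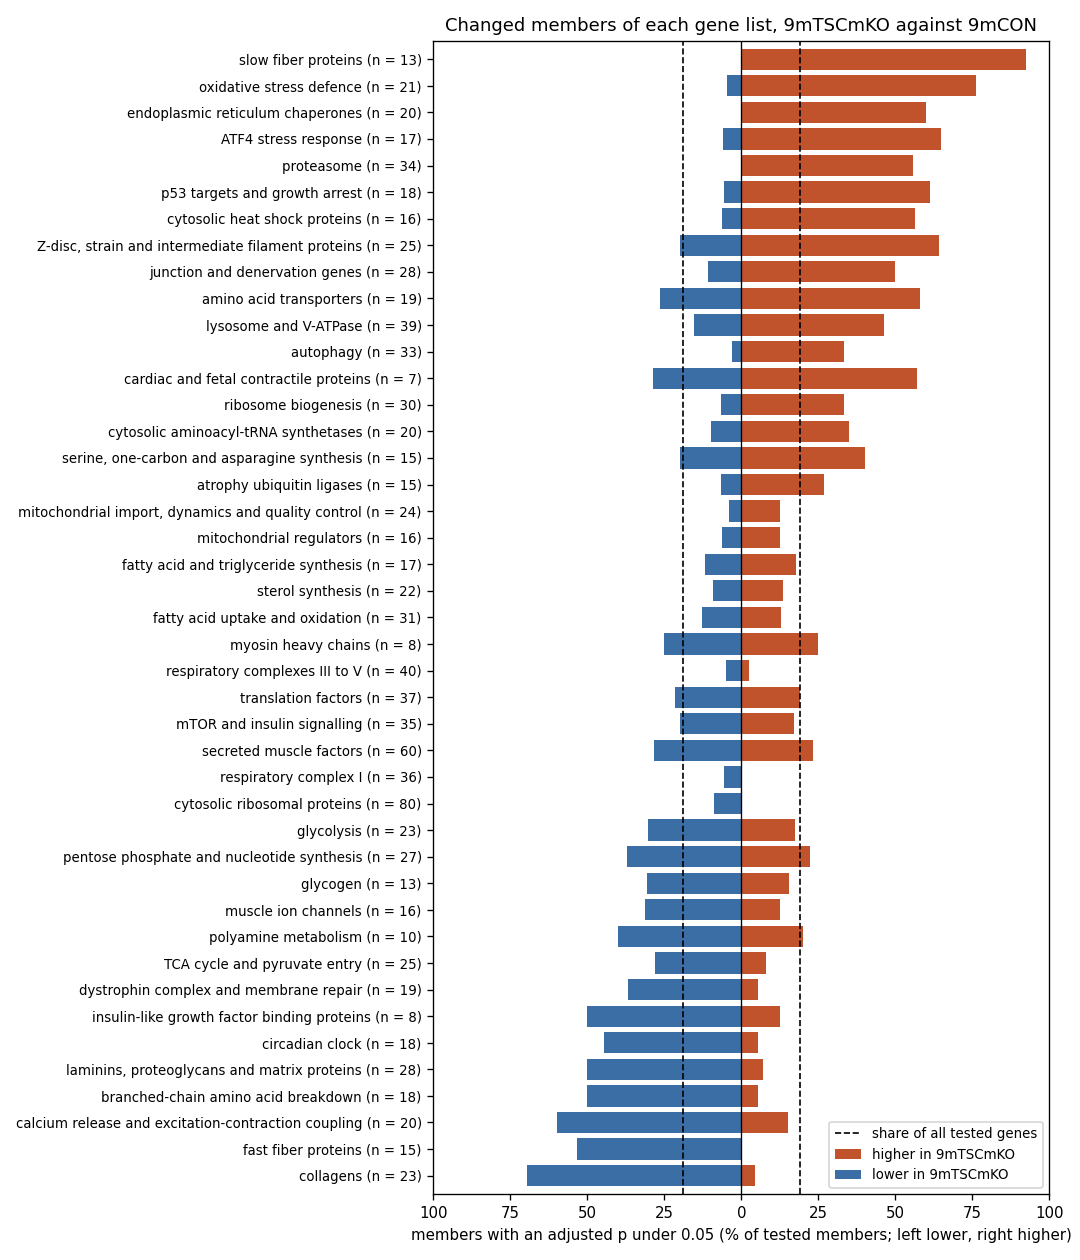
Share of the tested members of each gene list (% on the x axis, left for lower and right for higher in 9mTSCmKO) that passed an adjusted p of 0.05, with n as the number of tested members. Dashed lines mark the shares of all tested genes, 19.1% higher and 18.9% lower, which the slow fiber list exceeded on the rising side with 12 of 13 members and the collagens on the falling side with 16 of 23. The lists were chosen with earlier results of these data known.

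The contractile program differed between the groups. Slow (type I) and fast (type II) fibers build their sarcomeres and calcium pumps from different gene copies, and the EDL of the mouse is almost wholly fast. Of 13 slow-fiber genes, 12 rose and none fell, all 12 by at least 2-fold, with a median log2 fold change of 1.91. Of 15 fast-fiber genes none rose and 8 fell, 5 of them by at least 2-fold, with a median of -0.60.

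Myl2 (ENSMUSG00000013936, protein-coding, chromosome 5, 122100951 to 122113472, GRCm38), the regulatory light chain of slow and cardiac myosin, was at 16.7, 17.2, 15.0, 15.9 and 20.9 CPM in the 9mCON libraries and at 566, 493, 712, 731 and 324 CPM in the 9mTSCmKO libraries. Every 9mTSCmKO value lay above every 9mCON value, and the log2 fold change was 5.04, SE 0.513, adjusted p = 1.18e-09. Atp2a2, the slow and cardiac calcium pump SERCA2, was at 38.0, 29.7, 42.1, 41.2 and 60.9 CPM in 9mCON and 442, 921, 638, 1123 and 432 CPM in 9mTSCmKO (4.07, SE 0.363, adjusted p = 3.6e-11). Tnni1, the slow inhibitory troponin, rose from 2.09 ± 0.679 CPM to 28.5 ± 16.8 CPM (3.73, SE 0.612, adjusted p = 9.51e-06). Among further members, chosen after their values were seen, the slow troponins Tnnt1 (2.99, adjusted p = 5.73e-05) and Tnnc1 (3.48, adjusted p = 5.13e-05), slow tropomyosin Tpm3 (1.47, adjusted p = 0.000503) and the cardiac calsequestrin Casq2 (1.76, adjusted p = 9.03e-11) rose too.

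The other 7 fast-fiber genes did not pass, the 3 fast troponins among them. Mybpc2, the fast myosin-binding protein C, fell from 4404, 3959, 4869, 4567 and 5538 CPM in 9mCON to 1879, 2222, 1346, 1682 and 2269.8 CPM in 9mTSCmKO (-1.31, SE 0.172, adjusted p = 9.14e-08). Sypl2 (mitsugumin-29), a protein of the triad membrane, fell from 530.4 ± 19.8 CPM to 217 ± 36.8 CPM (-1.29, SE 0.119, adjusted p = 3.51e-11), and Casq1, the fast calsequestrin that stores calcium, from 3905 ± 579.9 CPM to 1771 ± 191 CPM (-1.14, SE 0.144, adjusted p = 4.23e-08). The fast calcium pump Atp2a1 fell as well, from 29258 ± 4876 CPM to 13467 ± 2941 CPM (-1.12, SE 0.149, adjusted p = 1.36e-07). 

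**Figure D2:**
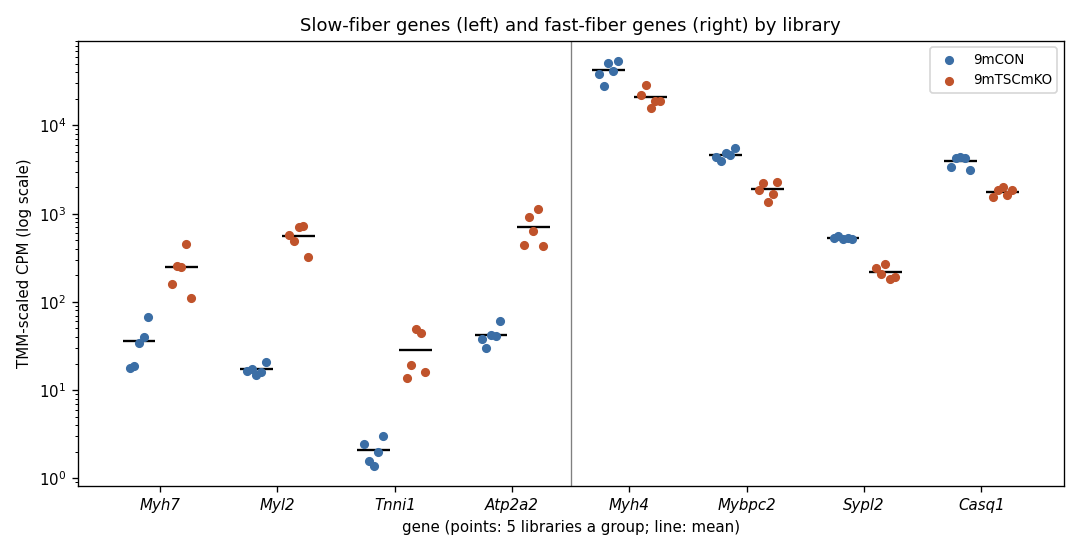
TMM-scaled CPM (log scale) of 4 slow-fiber genes and 4 fast-fiber genes in each library of 9mCON and 9mTSCmKO, with points for libraries and a line for the mean. Slow-fiber genes such as Myl2 rose from a mean of 17.1 to 565 CPM, and the fast-fiber genes fell by less on this scale.

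The myosin heavy chains, the motors that set a fiber's type, were less uniform, and 2 of 8 rose and 2 fell. Myh7, the slow chain, was at 17.8, 18.6, 34.5, 39.8 and 67.4 CPM in 9mCON and at 158, 258, 252, 459 and 109.7 CPM in 9mTSCmKO, which do not overlap (2.79, SE 0.525, adjusted p = 7.4e-05). Myh4, the chain of the fastest (IIB) fibers, fell from 42648 ± 10356 CPM to 20876 ± 4993 CPM (-1.03, SE 0.214, adjusted p = 0.000196), with overlap between the groups. Myh1, the IIX chain, was at 8691 ± 3162 CPM in 9mCON and 9237 ± 2656 CPM in 9mTSCmKO (adjusted p = 0.777). Myh2, the IIA chain, was at 91.2 ± 79.6 CPM in 9mCON and 53.8 ± 32.0 CPM in 9mTSCmKO (adjusted p = 0.0964), and its log2 fold change of -0.76 was -0.09 without 9mCON replicate 5. The perinatal chain Myh8 fell from 2662 ± 704 CPM to 1667 ± 537 CPM (-0.67, SE 0.211, adjusted p = 0.0106), a call lost without 9mCON replicate 5 and with both groups fitted alone. The cardiac chain Myh6 rose from 27.4 ± 14.7 CPM to 47.5 ± 19.6 CPM (0.79, SE 0.295, adjusted p = 0.034), a call lost in 8 of 17 alternative fits, 6 of which left out 1 library. Myh7b, a slow-tonic chain, was at 1.12 ± 0.365 CPM in 9mCON and 1.86 ± 0.459 CPM in 9mTSCmKO (adjusted p = 0.0585) and Myh13, the extraocular chain, at 11.3 ± 10.9 CPM in 9mCON and 8.0 ± 7.18 CPM in 9mTSCmKO (adjusted p = 0.62).

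Set against each other per length, in the deposited TPM values, Myh4 made up 78.7 to 86.6% of the sum of the adult chains Myh1, Myh2, Myh4 and Myh7 in 9mCON and 62.2 to 75.0% in 9mTSCmKO. Myh1 made up 13.2 to 19.9% and 23.9 to 35.4%, so that its share was higher in every 9mTSCmKO library while its level was not. Myh7 remained a minor chain at 0.0390 to 0.0960% and 0.438 to 1.53%. The chains share sequence, and 37.7% of the 31-base stretches of Myh1, 30.0% of those of Myh4 and 22.9% of those of Myh7 also occur in other genes of the table, so that short reads from there cannot be placed.

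Of 7 cardiac and fetal contractile genes, 4 rose and 2 fell. Ankrd1, a stretch-responsive cardiac ankyrin repeat protein, rose from 29.1 ± 4.90 CPM to 499.6 ± 196 CPM (4.10, SE 0.521, adjusted p = 1.09e-07). Myl4, the embryonic and atrial light chain, rose from 17.2 ± 7.49 CPM to 115 ± 39.0 CPM (2.75, SE 0.255, adjusted p = 5.56e-11). Mybph, another myosin-binding protein, fell from 66.6 ± 38.1 CPM to 18.05 ± 6.27 CPM (-1.88, SE 0.616, adjusted p = 0.0157), and its adjusted p was 0.056 without 9mCON replicate 1.

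Excitation-contraction coupling, the chain from the membrane potential to calcium release, was lower as a group, with 12 of 20 genes fallen and 3 risen. Cacna1s, the voltage sensor, was at 1098, 1148, 1619, 1691 and 2034 CPM in 9mCON and 435, 792, 475, 675 and 658 CPM in 9mTSCmKO (-1.32, SE 0.155, adjusted p = 8.19e-09). Itpr1, a calcium channel gated by inositol trisphosphate, fell from 66.4 ± 5.88 CPM to 25.3 ± 4.69 CPM (-1.39, SE 0.122, adjusted p = 9.24e-12). The release channel Ryr1 fell from 691 ± 310.1 CPM to 338 ± 134 CPM (-1.03, SE 0.227, adjusted p = 0.000408), with overlap. Sarcolipin (Sln), a small inhibitor of the SERCA pump, went against the group, from 2.18, 1.66, 1.30, 1.20 and 1.14 CPM in 9mCON to 23.3, 17.7, 44.9, 23.5 and 11.9 CPM in 9mTSCmKO (4.02, SE 0.314, adjusted p = 5.15e-13).

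Of 16 muscle ion channels, 5 fell and 2 rose. Clcn1, the chloride channel that stabilizes the resting membrane, fell from 250 ± 22.4 CPM to 136 ± 9.22 CPM (-0.88, SE 0.104, adjusted p = 9.93e-09). Kcnn3, a calcium-activated potassium channel, rose from 7.70 ± 2.58 CPM to 17.6 ± 4.32 CPM (1.18, SE 0.211, adjusted p = 2.59e-05). The 5 falls were 3 without 9mCON replicate 4, without 9mTSCmKO replicate 1 and with both groups fitted alone.

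Proteins of the Z-disc, of strain sensing and of intermediate filaments rose in 16 of 25 cases, 12 by at least 2-fold, and fell in 5. Igfn1, a Z-disc protein of the immunoglobulin family, was at 79.1, 37.7, 90.4, 37.8 and 36.8 CPM in 9mCON and 1440.5, 806, 510.4, 838 and 1388 CPM in 9mTSCmKO (4.15, SE 0.407, adjusted p = 3.68e-10). The keratins Krt8 and Krt18 had the largest changes of the list, 9.05 and 6.21, and Krt8 was counted 2 times in all 9mCON libraries together and 1571 times in 9mTSCmKO, a ratio of 668 with a 95% counting interval of 184 to 5516 (exact binomial, counting error alone). Nebulin (Neb), the ruler of the thin filament, fell from 1452 ± 1048 CPM to 489 ± 257 CPM (-1.57, SE 0.356, adjusted p = 0.000633), with overlap, and its log2 fold change was -1.03 without 9mCON replicate 5. Of the 5 falls, 3 passed without 9mCON replicate 5, without 9mTSCmKO replicate 3 and with both groups fitted alone. In the dystrophin complex and membrane repair list 7 of 19 fell, among them the water channel Aqp4 (-6.11) and the sarcoglycan Sgca (-0.68, adjusted p = 0.000156), and Trim72, a membrane repair protein, rose (0.51, adjusted p = 0.0129). The 7 falls were 4 without 9mCON replicate 4 or 5 or 9mTSCmKO replicate 3 and 3 with both groups fitted alone, and Trim72 passed neither in that fit nor without 9mCON replicate 1 or 9mTSCmKO replicate 2.

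In the metabolic lists, the shares of risen genes in glycolysis, fatty acid oxidation, lipid synthesis and sterol synthesis were below the 19.1% over all genes, and no difference between lists was tested. In glycolysis 4 of 23 rose, all 4 by at least 2-fold, and 7 fell. The risen genes are copies that are used widely outside fast muscle. Hexokinase 1 (Hk1) was at 15.4, 9.43, 11.6, 10.7 and 13.4 CPM in 9mCON and 48.6, 34.7, 50.6, 26.4 and 21.1 CPM in 9mTSCmKO (1.58, SE 0.203, adjusted p = 6.23e-08). The lactate dehydrogenase subunit Ldhb rose from 148 ± 27.6 CPM to 498 ± 127 CPM (1.75, SE 0.210, adjusted p = 1.56e-08) and the glucose transporter Slc2a1 (GLUT1) from 12.4 ± 1.73 CPM to 36.4 ± 6.65 CPM (1.55, SE 0.162, adjusted p = 7.7e-10). The insulin-responsive transporter Slc2a4 (GLUT4), chosen after its values were seen, fell from 499.6 ± 59.7 CPM to 314 ± 23.2 CPM (-0.67, SE 0.109, adjusted p = 5.58e-06). In the glycogen list 2 of 13 rose and 4 fell. The branching enzyme Gbe1 rose from 66.2 ± 21.0 CPM to 189 ± 37.2 CPM (1.51, SE 0.188, adjusted p = 3.21e-08). The glycogen-binding Stbd1 rose from 34.9 ± 3.11 CPM to 57.0 ± 8.68 CPM (0.71, SE 0.138, adjusted p = 8.18e-05). Muscle glycogen phosphorylase Pygm, which starts glycogen breakdown, fell from 5733 ± 994 CPM to 3452 ± 589.7 CPM (-0.73, SE 0.134, adjusted p = 3.68e-05). The 4 glycogen falls were 2 with both groups fitted alone.

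Few genes of mitochondrial respiration passed the threshold. Of 36 nuclear complex I genes none rose and 2 fell, and of 40 genes of complexes III to V 1 rose and 2 fell, with medians of -0.03 and -0.02. The risen gene was Atpif1, the inhibitor of the ATP synthase, from 20.8 ± 7.32 CPM to 41.7 ± 13.3 CPM (1.004, SE 0.214, adjusted p = 0.000274). Leaving out 1 library gave 0 to 5 risen complex I genes and 1 to 4 risen genes of complexes III to V, with 1 to 3 falls in each. With both groups fitted alone 1 complex I gene and none of complexes III to V fell. Ndufs7 of complex I fell from 229.6 ± 37.9 CPM to 160.4 ± 43.5 CPM (-0.52, SE 0.159, adjusted p = 0.00951). It did not pass without 9mTSCmKO replicate 1 or with both groups fitted alone. Of 25 genes of the tricarboxylic acid cycle 2 rose and 7 fell (3 falls with both groups fitted alone). Idh2, the mitochondrial isocitrate dehydrogenase that makes NADPH, was at 184, 189.9, 179, 191 and 214 CPM in 9mCON and 319, 447, 428, 416 and 268 CPM in 9mTSCmKO (0.97, SE 0.166, adjusted p = 1.2e-05). Branched-chain amino acid breakdown was lower in 9 of 18 genes and higher in 1. Bckdk, the kinase that holds this breakdown back, fell from 212 ± 23.3 CPM to 129.7 ± 26.4 CPM (-0.71, SE 0.125, adjusted p = 1.96e-05). The dehydrogenase Ivd fell from 171 ± 16.0 CPM to 114 ± 12.3 CPM (-0.58, SE 0.143, adjusted p = 0.00126), and Pcca, which acts on propionyl-CoA, changed by -0.68 (adjusted p = 3.38e-07). Acad8 rose by 0.25 (adjusted p = 0.024), a call lost in 5 of 17 alternative fits, including those without 9mCON replicate 1 or 4 or 9mTSCmKO replicate 3.

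Among 16 mitochondrial regulators 2 rose and 1 fell. The falls were 4 without 9mCON replicate 1, 3 without 9mCON replicate 2 or 9mTSCmKO replicate 2 or 4, and none without 9mCON replicate 4 or 5 or 9mTSCmKO replicate 3. Esrrg, an orphan nuclear receptor of oxidative muscle, rose from 22.4 ± 8.74 CPM to 52.3 ± 15.2 CPM (1.22, SE 0.282, adjusted p = 0.000775). The corepressor Nrip1 fell from 42.6 ± 13.9 CPM to 28.0 ± 2.35 CPM (-0.61, SE 0.218, adjusted p = 0.0261), which did not pass without 9mCON replicate 4 or 5 or 9mTSCmKO replicate 3 or with both groups fitted alone. Ppargc1a (PGC-1α), the coactivator of mitochondrial genes, was at 71.5 ± 24.6 CPM in 9mCON and 40.002 ± 8.15 CPM in 9mTSCmKO (adjusted p = 0.0525). Of 24 genes of mitochondrial import and quality control 3 rose (1 with both groups fitted alone or without 9mTSCmKO replicate 4, and 5 without 9mTSCmKO replicate 1), among them the protease subunit Afg3l2 (0.60, adjusted p = 2.42e-05), and the protease Oma1 fell (-0.48, adjusted p = 0.0156), a call lost without 9mCON replicate 2 (-0.28) and with both groups fitted alone.

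Fatty acid oxidation had 4 risen and 4 fallen genes of 31 (8 fallen without 9mTSCmKO replicate 3), with the lipase Pnpla2 up (0.50, adjusted p = 0.00161) and the transporter Slc27a1 down (-0.57, adjusted p = 0.00242). In lipid synthesis, 3 of 17 genes rose and 2 fell, or 1 in each direction with both groups fitted alone. The rises were 1 without 9mTSCmKO replicate 1, and the falls 5 without 9mCON replicate 2 and 4 without 9mTSCmKO replicate 2. Thrsp, a lipogenic regulator, was at 10.6, 7.92, 8.04, 8.52 and 7.64 CPM in 9mCON and 33.7, 43.0, 57.5, 37.9 and 35.6 CPM in 9mTSCmKO (2.28, SE 0.244, adjusted p = 1.49e-09). Srebf1, the transcription factor that drives lipogenic genes, fell from 55.0 ± 7.55 CPM to 34.1 ± 6.33 CPM (-0.69, SE 0.154, adjusted p = 0.000474). Of 22 sterol synthesis genes 3 rose, including Cyp51 (0.95, adjusted p = 5.45e-07) and Mvd (1.24, adjusted p = 2.84e-05), and 2 fell.

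Pentose phosphate and nucleotide synthesis had 6 of 27 risen and 10 fallen. Pgd, which makes NADPH in the pentose phosphate pathway, was at 15.5, 14.3, 13.6, 14.2 and 14.3 CPM in 9mCON and 35.1, 28.8, 52.2, 27.7 and 24.9 CPM in 9mTSCmKO (1.23, SE 0.145, adjusted p = 9.32e-09), and Ctps2, a CTP synthase, rose by 1.03 (adjusted p = 9.07e-08). Ampd1, the AMP deaminase of fast muscle, was at 1151, 1143, 1158, 1106 and 1123 CPM in 9mCON and 496, 599, 536, 478 and 630.4 CPM in 9mTSCmKO (-1.05, SE 0.143, adjusted p = 2.03e-07). In polyamine metabolism Sat1, which starts polyamine breakdown by acetylation, rose from 26.7 ± 14.5 CPM to 62.7 ± 18.5 CPM (1.24, SE 0.198, adjusted p = 4.24e-06). Azin1, which spares ornithine decarboxylase from degradation, rose by 0.50 (adjusted p = 0.0115). On the falling side were 4 of 10 genes, with spermine oxidase Smox from 147 ± 31.2 CPM to 46.0 ± 11.3 CPM (-1.68, SE 0.220, adjusted p = 1.07e-07) and the polyamine oxidase Paox at -0.45 (adjusted p = 0.00895). With both groups fitted alone the 4 falls were 2.

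Serine, one-carbon and asparagine synthesis had 6 of 15 genes risen and 3 fallen. Mthfd2, the mitochondrial folate enzyme, was at 3.37, 5.06, 2.44, 4.26 and 4.13 CPM in 9mCON and 40.9, 29.4, 38.8, 33.4 and 36.6 CPM in 9mTSCmKO (3.21, SE 0.236, adjusted p = 1.07e-13). Psat1, which makes phosphoserine, was at 1.06, 1.89, 1.14, 1.75 and 1.24 CPM in 9mCON and 9.57, 12.2, 18.5, 11.4 and 11.2 CPM in 9mTSCmKO (3.15, SE 0.263, adjusted p = 2.8e-12). The asparagine synthetase Asns rose from 1.68 ± 0.306 CPM to 7.45 ± 3.09 CPM (2.15, SE 0.284, adjusted p = 1.07e-07). Shmt1, the cytosolic folate enzyme, fell from 7.64 ± 1.23 CPM to 3.00 ± 0.729 CPM (-1.34, SE 0.207, adjusted p = 2.17e-06).

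These enzymes overlap with the targets of ATF4, a transcription factor whose translation rises when amino acids are short or proteins misfold and which mTORC1 also raises. Of 17 genes in the ATF4 list 11 rose and 1 fell, with a median of 0.97. The pseudokinase Trib3 rose from 1.25 ± 0.715 CPM to 6.08 ± 2.57 CPM (2.24, SE 0.353, adjusted p = 3.33e-06). Sesn2, which senses leucine and restrains mTORC1, rose from 3.64 ± 0.884 CPM to 11.5 ± 1.93 CPM (1.67, SE 0.190, adjusted p = 4.46e-09). Chac1, which degrades glutathione, went the other way, from 60.1, 91.4, 32.0, 73.0 and 66.0 CPM in 9mCON to 25.5, 29.5, 28.0, 36.4 and 29.4 CPM in 9mTSCmKO (-1.12, SE 0.340, adjusted p = 0.00938), with overlap.

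ATF4 binds a composite element that was searched as TGATGNAA on both strands in the 250 bases before each RefSeq start (GRCm38.p6). It was present for 258 of 10375 tested genes with a promoter entry (2.49%), for 5 of 16 of the ATF4 list (31.2%) and for 3 of 12 aminoacyl-tRNA synthetases. The ATF4 list was written from known targets, some known by this element, so that its share is a description. The element of 5 genes is shown in capitals, 5′ to 3′ on the strand of the gene, because genes that carry it moved in different ways, and the genes shown were chosen after their values were seen. Asns and Nupr1 (1.33, adjusted p = 1.59e-05) rose, as did the cystine transporter Slc7a11 (1.08, adjusted p = 0.000364). Chac1 fell, and Atf3, itself a stress transcription factor, had a change of 0.24, adjusted p = 0.816.
Asns (chr6:7693215-7693242, minus strand): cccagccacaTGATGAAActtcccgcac
Nupr1 (chr7:126625563-126625590, minus strand): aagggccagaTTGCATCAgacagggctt
Slc7a11 (chr3:50443662-50443689, minus strand): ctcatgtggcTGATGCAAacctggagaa
Chac1 (chr2:119351039-119351066, plus strand): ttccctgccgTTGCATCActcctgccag
Atf3 (chr1:191183426-191183453, minus strand): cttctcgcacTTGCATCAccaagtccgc

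Amino acid transporters rose in 11 of 19 cases and fell in 5. Slc7a5, the carrier of leucine and other large neutral amino acids, was at 3.60, 2.26, 1.79, 3.33 and 3.15 CPM in 9mCON and 14.4, 13.1, 16.0, 10.4 and 11.6 CPM in 9mTSCmKO (2.19, SE 0.204, adjusted p = 4.13e-11). The glycine transporter Slc6a9 rose from 3.24 ± 0.771 CPM to 10.9 ± 1.84 CPM (1.75, SE 0.210, adjusted p = 1.42e-08). Slc43a2, another carrier of large neutral amino acids, rose from 21.5 ± 4.70 CPM to 49.4 ± 13.2 CPM (1.20, SE 0.147, adjusted p = 2.5e-08). The lysosomal transporter Slc36a1 fell from 3.35 ± 1.07 CPM to 1.55 ± 0.898 CPM (-1.11, SE 0.269, adjusted p = 0.00117). The 5 falls were 2 with both groups fitted alone, and Slc36a1 did not pass there.

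In the mTOR and insulin signalling list 6 of 35 rose and 7 fell, both near the background. The genes with the largest rises were inhibitors of mTORC1, Sesn3 from 31.5 ± 9.65 CPM to 111 ± 40.6 CPM (1.82, SE 0.204, adjusted p = 3.74e-09), Ddit4 (REDD1) from 19.7 ± 7.0 CPM to 65.6 ± 26.6 CPM (1.73, SE 0.514, adjusted p = 0.00795) and Sesn2. With both groups fitted alone the 7 falls were 3.

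The translation machinery showed no common direction. Of 80 cytosolic ribosomal protein genes none rose and 7 fell (18.9% of all genes fell), with a median of -0.09. The fallen genes included Rpl3l, the muscle copy of Rpl3, from 354 ± 93.2 CPM to 223 ± 29.5 CPM (-0.66, SE 0.140, adjusted p = 0.000233). Rps4x fell from 263 ± 49.5 CPM to 176 ± 17.7 CPM (-0.58, SE 0.124, adjusted p = 0.000306). Leaving out 9mCON replicate 2 or 9mTSCmKO replicate 2 gave 2 and 4 falls, and fitting both groups alone gave 2. Without 9mCON replicate 2, 2 ribosomal protein genes rose. Of 37 translation factors 7 rose and 8 fell. The helicase Eif4a1 rose from 80.2 ± 17.6 CPM to 134 ± 23.5 CPM (0.75, SE 0.110, adjusted p = 9.29e-07). Elongation factor Eef2, which moves the ribosome along, fell from 1358 ± 142 CPM to 772 ± 139.5 CPM (-0.82, SE 0.110, adjusted p = 1.78e-07). Eif4b fell from 318 ± 46.5 CPM to 204 ± 30.6 CPM (-0.64, SE 0.106, adjusted p = 7.67e-06). Fitted alone, the groups differed in 3 risen and 2 fallen translation factors, and the falls were 4 without 9mCON replicate 2 and 5 without 9mTSCmKO replicate 1. Ribosome biogenesis had 10 of 30 genes risen, including Utp20 (0.68, adjusted p = 0.0071), Nop14 (0.52, adjusted p = 0.000225) and Rrp9 (0.45, adjusted p = 0.00559), and 2 fallen, with Polr1c (-0.33, adjusted p = 0.0447), whose call was lost in 12 of 17 alternative fits. The 10 rises were 6 without 9mTSCmKO replicate 3 and 2 with both groups fitted alone. No gene of this list fell in that fit or without 9mCON replicate 5, and 3 fell without 9mCON replicate 3. Of 20 cytosolic aminoacyl-tRNA synthetases 7 rose, led by Nars (0.77, adjusted p = 1.74e-07), Sars (0.68, adjusted p = 5.65e-08) and Gars (0.64, adjusted p = 4.8e-06), and 2 fell, with Iars at -0.39 (adjusted p = 0.0392), a call lost in 7 of 17 alternative fits. No synthetase fell with both groups fitted alone or without 9mCON replicate 3.

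In protein folding and turnover, more genes rose than fell. Of 20 genes for chaperones of the endoplasmic reticulum 12 rose and none fell, with 1 changed by at least 2-fold. Hspa5 (BiP), the main chaperone there, rose from 246 ± 17.0 CPM to 425 ± 66.4 CPM (0.79, SE 0.119, adjusted p = 1.39e-06). The transcription factor Xbp1, which drives such genes, rose from 57.2 ± 4.86 CPM to 94.2 ± 13.8 CPM (0.72, SE 0.0991, adjusted p = 2.55e-07). Edem1, which directs misfolded glycoproteins to degradation, rose from 8.40 ± 2.37 CPM to 14.5 ± 4.96 CPM (0.79, SE 0.187, adjusted p = 0.000949). With both groups fitted alone 7 passed. Of 16 cytosolic heat shock genes 9 rose and 1 fell. Hspb7, a small heat shock protein of heart and muscle, was at 265, 307, 288, 469 and 419 CPM in 9mCON and 2777, 2948, 4060.3, 4333 and 3032 CPM in 9mTSCmKO (3.29, SE 0.274, adjusted p = 3.37e-12). Hspb1 rose from 92.6 ± 17.0 CPM to 368 ± 138 CPM (1.99, SE 0.245, adjusted p = 2.79e-08). Bag3, which directs damaged filamin to autophagy, rose from 146 ± 26.8 CPM to 396 ± 58.3 CPM (1.43, SE 0.126, adjusted p = 9.24e-12). Dnajb1 changed by -0.89 (adjusted p = 0.00457), or by -0.32 without 9mCON replicate 2, and did not pass there or with both groups fitted alone.

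The proteasome list had 19 of 34 genes risen and none fallen, with a median of 0.41. The lid subunit Psmd8 was at 164, 246, 183, 199 and 197 CPM in 9mCON and 332, 332, 501, 382 and 458 CPM in 9mTSCmKO (1.02, SE 0.126, adjusted p = 2.52e-08), and the catalytic subunit Psmb5 rose from 67.2 ± 9.28 CPM to 120.2 ± 19.9 CPM (0.84, SE 0.108, adjusted p = 6.12e-08). Psmd11 rose from 117 ± 8.31 CPM to 201 ± 14.3 CPM (0.77, SE 0.111, adjusted p = 5.88e-07). With both groups fitted alone 12 passed, all of them higher. The atrophy ubiquitin ligases, which tag muscle proteins for the proteasome, rose in 4 of 15 cases, 2 without 9mCON replicate 2 and 2 with both groups fitted alone. Fbxo30 (MUSA1) rose from 23.9 ± 4.25 CPM to 42.7 ± 4.02 CPM (0.84, SE 0.145, adjusted p = 1.33e-05), and Cblb changed by -0.52 (adjusted p = 0.00853), a call lost with both groups fitted alone. Fbxo32 (atrogin-1) at 0.69 (adjusted p = 0.017) and Trim63 (MuRF1) at 0.77 (adjusted p = 0.0164), chosen after their values were seen, both lost their calls without 9mCON replicate 2, and Trim63 also without 9mCON replicate 1 or 9mTSCmKO replicate 2 and with both groups fitted alone.

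Autophagy genes rose in 11 of 33 cases (7 with both groups fitted alone) and fell in 1. The falls were 4 without 9mCON replicate 1, 3 without 9mCON replicate 2 or 9mTSCmKO replicate 2, and none with both groups fitted alone. Sqstm1 (p62), the receptor that brings ubiquitinated cargo to autophagosomes, was at 626, 641, 538, 609 and 645 CPM in 9mCON and 1601, 1626, 2518, 1586 and 1660.5 CPM in 9mTSCmKO (1.56, SE 0.133, adjusted p = 4.87e-12). Gabarapl1 rose from 46.8 ± 6.29 CPM to 87.4 ± 12.6 CPM (0.90, SE 0.118, adjusted p = 8.92e-08). Wipi1 rose from 115 ± 18.2 CPM to 212 ± 32.5 CPM (0.88, SE 0.102, adjusted p = 6.46e-09), both parts of the autophagosome machinery, and Atg9a changed by -0.38 (adjusted p = 0.00567), a call lost with both groups fitted alone. Lysosome and proton pump genes rose in 18 of 39 cases and fell in 6, of which none passed with both groups fitted alone. Cathepsin L (Ctsl) was at 138, 186, 135, 113 and 101 CPM in 9mCON and 549, 279.7, 614, 278 and 297 CPM in 9mTSCmKO (1.58, SE 0.193, adjusted p = 1.97e-08). The pump subunits Atp6v1h and Atp6v0e rose by 1.22 (adjusted p = 8.45e-09) and 0.92 (adjusted p = 1.32e-06). The lysosomal regulator Tfe3 changed by -0.43 (adjusted p = 0.00183).

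**Figure D3:**
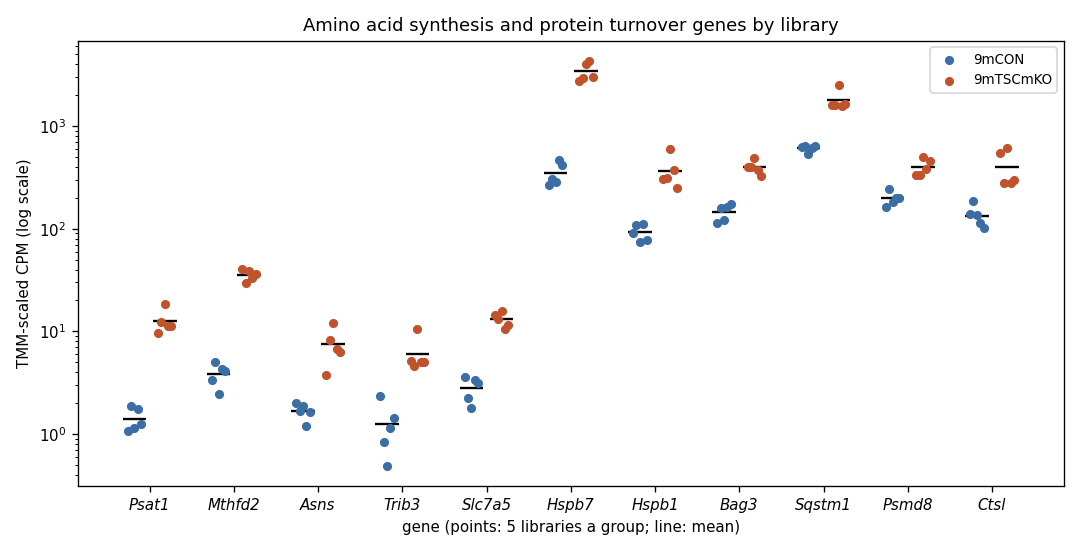
TMM-scaled CPM (log scale) of 11 genes of amino acid synthesis and uptake, chaperones, autophagy, the proteasome and the lysosome in each library, with points for libraries and a line for the mean of the 5 libraries of a group. These genes were named by a rule that asks for no overlap between the groups, and Hspb7 had the highest 9mTSCmKO mean, at 3429.8 CPM.

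Genes of oxidative stress defence rose in 16 of 21 cases, 9 by at least 2-fold, and fell in 1. The secreted glutathione peroxidase Gpx3 was at 405, 521, 393, 385 and 359.6 CPM in 9mCON and 1804, 1466, 2349, 1379 and 1106 CPM in 9mTSCmKO (1.97, SE 0.227, adjusted p = 6.28e-09). The metallothioneins Mt1 and Mt2, which bind zinc, rose by 2.05 (adjusted p = 0.00186) and 3.38. The fallen gene was the mitochondrial superoxide dismutase Sod2, from 363 ± 30.0 CPM to 260.0 ± 44.3 CPM (-0.48, SE 0.110, adjusted p = 0.000609), and 22.2% of its 31-base stretches occur in other genes. The antioxidant response element, searched as TGACNNNGC on both strands in the same 250 bases, was present for 6 of 16 of these genes (37.5%) against 13.9% of all tested genes with an entry. It was also present for 5 of 14 amino acid transporters (35.7%) and 8 of 30 lysosome and proton pump genes (26.7%). The oxidative stress list was written from known antioxidant genes, some known by this element, so that its share is a description. Gclm (0.63, adjusted p = 2.16e-05), a glutathione synthesis gene that rose, and the peroxiredoxin Prdx1 (0.04, adjusted p = 0.827), whose change was near 0, are shown with the element in capitals.
Gclm (chr3:122245413-122245441, plus strand): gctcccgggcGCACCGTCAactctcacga
Prdx1 (chr4:116685456-116685484, plus strand): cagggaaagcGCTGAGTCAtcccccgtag

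Of 18 p53 targets and growth arrest genes 11 rose and 1 fell. Eda2r, a death receptor of the tumor necrosis factor family, was at 10.6, 18.1, 14.8, 26.5 and 23.0 CPM in 9mCON and 83.5, 78.7, 93.9, 92.3 and 90.2 CPM in 9mTSCmKO (2.23, SE 0.296, adjusted p = 1.74e-07). The apoptosis effector Perp rose from 1.65 ± 0.368 CPM to 6.66 ± 2.52 CPM (2.03, SE 0.319, adjusted p = 3.23e-06), and Gadd45a, a growth arrest gene, changed by 2.74. Ccng1 changed by -0.42 (adjusted p = 0.0233), a call lost in 5 of 17 alternative fits, including those without 9mCON replicate 3 or 4 or 9mTSCmKO replicate 1 or 3.

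Junction and denervation genes rose in 14 of 28 cases and fell in 3. The 14 rises were 11 to 13 with 1 library left out and 10 with both groups fitted alone. The adhesion molecule Ncam1, which spreads along denervated fibers, rose from 14.2 ± 3.68 CPM to 35.9 ± 6.70 CPM (1.33, SE 0.181, adjusted p = 1.92e-07). Etv5, a transcription factor of synaptic nuclei, rose from 15.7 ± 4.21 CPM to 29.9 ± 6.12 CPM (0.92, SE 0.159, adjusted p = 1.33e-05). Chrne, the subunit of the adult acetylcholine receptor, fell from 21.5 ± 3.54 CPM to 11.4 ± 2.07 CPM (-0.91, SE 0.177, adjusted p = 8.35e-05). Of 18 circadian clock genes 8 fell and 1 rose. Hlf, an output regulator of the clock, was at 21.9, 13.7, 23.7, 27.4 and 26.9 CPM in 9mCON and 3.43, 6.24, 2.57, 5.71 and 10.3 CPM in 9mTSCmKO (-1.998, SE 0.253, adjusted p = 5.67e-08). Per3 changed by -1.21 (adjusted p = 9.06e-06) and Dbp by -0.89 (adjusted p = 0.0124), while the repressor Cry2 rose by 0.74 (adjusted p = 0.000212). The 8 falls were 4 or 5 without 9mCON replicate 4 or 5 or 9mTSCmKO replicate 1 or 3, and the time of day at which muscles were taken is not on the labels.

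Secreted muscle factors changed in both directions, with 14 of 60 risen and 17 fallen. Gdf15, a stress hormone of the transforming growth factor β family that acts on the hindbrain, was at 0.118, 0.226, 0, 0.0546 and 0.0516 CPM in 9mCON and 10.3, 3.59, 10.4, 2.48 and 3.72 CPM in 9mTSCmKO (6.02, SE 0.548, adjusted p = 2.3e-11). In that family myostatin (Mstn), which limits muscle growth, fell from 48.7, 68.0, 64.1, 77.3 and 69.9 CPM in 9mCON to 27.2, 30.0, 22.5, 27.5 and 41.7 CPM in 9mTSCmKO (-1.14, SE 0.207, adjusted p = 3.31e-05). Its relative Gdf11 fell from 18.1 ± 3.59 CPM to 11.7 ± 5.37 CPM (-0.62, SE 0.216, adjusted p = 0.021). Their antagonist follistatin (Fst) fell from 8.34 ± 1.51 CPM to 4.96 ± 1.72 CPM (-0.75, SE 0.275, adjusted p = 0.0288). The calls of both were lost in 3 fits without 1 library, for Gdf11 without 9mCON replicate 3 or 9mTSCmKO replicate 3 or 4, and for Fst without 9mCON replicate 5 or 9mTSCmKO replicate 1 or 2, and that of Gdf11 also with both groups fitted alone. Inhbb, the activin B subunit, rose from 0.633 ± 0.217 CPM to 1.86 ± 0.931 CPM (1.58, SE 0.338, adjusted p = 0.000283), with overlap, and Tgfb3 from 41.8 ± 2.08 CPM to 56.2 ± 8.78 CPM (0.43, SE 0.105, adjusted p = 0.00134). Bmp4 (0.69, adjusted p = 0.0264) and Bmp5 (-0.74, adjusted p = 0.0388) each lost their calls in 5 fits without 1 library and with both groups fitted alone, and Bmp5 also with no CPM filter.

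Among the fibroblast growth factors, Fgf7 was at 7.26, 8.15, 5.36, 7.15 and 4.18 CPM in 9mCON and 41.6, 32.4, 35.7, 36.6 and 24.9 CPM in 9mTSCmKO (2.42, SE 0.192, adjusted p = 7.29e-13). Fgf6 rose from 8.18 ± 1.85 CPM to 16.6 ± 2.11 CPM (1.02, SE 0.158, adjusted p = 2.52e-06). Fgf1 rose from 50.1 ± 8.16 CPM to 102 ± 27.7 CPM (1.02, SE 0.151, adjusted p = 1.01e-06), whereas Fgf2 fell from 13.7 ± 2.28 CPM to 5.87 ± 1.29 CPM (-1.23, SE 0.175, adjusted p = 4.95e-07). The angiogenic factor Vegfa was at 339, 384, 363, 352 and 244 CPM in 9mCON and 196, 148, 169, 163 and 185 CPM in 9mTSCmKO (-0.97, SE 0.124, adjusted p = 6.45e-08). Apelin (Apln) fell from 2.96 ± 0.704 CPM to 0.801 ± 0.771 CPM (-1.84, SE 0.423, adjusted p = 0.000661), and its log2 fold change was -2.62 without 9mTSCmKO replicate 5. Osteocrin (Ostn), a peptide that prolongs natriuretic signals, fell from 36.5 ± 7.61 CPM to 12.0 ± 2.71 CPM (-1.60, SE 0.382, adjusted p = 0.00111). The myokine interleukin 15 (Il15) changed by -0.84 (adjusted p = 0.00646), Ptn (pleiotrophin) by -1.21 (adjusted p = 0.00304), Fstl1 by -0.78 (adjusted p = 0.00704), Angptl2 by -0.55 (adjusted p = 0.00109) and Sparc by -1.05 (adjusted p = 8.65e-05).

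Among Wnt ligands and modulators, Wnt4 fell from 48.2 ± 12.6 CPM to 25.001 ± 10.1 CPM (-0.95, SE 0.184, adjusted p = 8.22e-05). The antagonist Sfrp1 fell from 2.73 ± 0.711 CPM to 0.763 ± 0.435 CPM (-1.85, SE 0.389, adjusted p = 0.000234), and the secreted glycoprotein Dkk3 had the largest fall of all genes named (-6.46). Dkk2 rose by 0.89 (adjusted p = 0.0397), which rests on 9mTSCmKO replicate 1 at 78.3 CPM, and without it the log2 fold change was 0.11 (adjusted p = 0.765). Its call was lost in 9 of 17 alternative fits, among them upper-quartile scaling, both groups alone and each fit without 9mCON replicate 2, 3, 4 or 5. Timp1, an inhibitor of matrix proteases, rose from 0.311 ± 0.213 CPM to 1.89 ± 1.36 CPM (2.62, SE 0.514, adjusted p = 9.26e-05) and Metrnl by 0.82 (adjusted p = 0.00435). Osteopontin (Spp1) at 1.56 (adjusted p = 0.0137) and adrenomedullin (Adm) at 0.80 (adjusted p = 0.0161) lost their calls without 9mTSCmKO replicate 3, where Adm was at 0.51, and Adm also with both groups fitted alone. Angptl4, which inhibits lipoprotein lipase, was at 20.6, 20.7, 18.4, 6.93 and 10.7 CPM in 9mCON and 69.6, 31.4, 115, 14.5 and 5.47 CPM in 9mTSCmKO (1.62, SE 0.564, adjusted p = 0.0231), and the groups overlapped. Without 9mTSCmKO replicate 3 the log2 fold change was 0.98. Its call was lost without 9mCON replicate 4 or 5 or 9mTSCmKO replicate 1 or 3, and with both groups fitted alone.

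The insulin-like growth factors moved apart, with Igf1 lower, from 22.4 ± 6.63 CPM to 12.1 ± 6.36 CPM (-0.89, SE 0.263, adjusted p = 0.00739), and Igf2 higher, from 24.9 ± 5.89 CPM to 45.5 ± 6.74 CPM (0.87, SE 0.143, adjusted p = 6.91e-06). Of 8 genes for their binding proteins and proteases 4 fell and 1 rose. Igfbp6, which binds IGF2, fell from 37.1 ± 7.96 CPM to 13.1 ± 3.86 CPM (-1.50, SE 0.288, adjusted p = 7.5e-05), Igfbp7 changed by -0.66 (adjusted p = 0.00143), the protease Htra1 by -0.94 (adjusted p = 1.32e-05) and Igfbp4 by -0.74 (adjusted p = 0.00936, lost without 9mCON replicate 5 and with both groups fitted alone). Igfbp3 rose by 0.61 (adjusted p = 0.0305), a call lost in 6 of 17 alternative fits, including those without 9mCON replicate 2, 3 or 4 or 9mTSCmKO replicate 1 or 2. Igfbp5, the most abundant, was at 1068 ± 234 CPM in 9mCON and 1037 ± 139 CPM in 9mTSCmKO (adjusted p = 0.875). Igfals (-0.60, adjusted p = 0.0816) and the protease Pappa (-0.34, adjusted p = 0.421) passed no threshold.

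**Figure D4:**
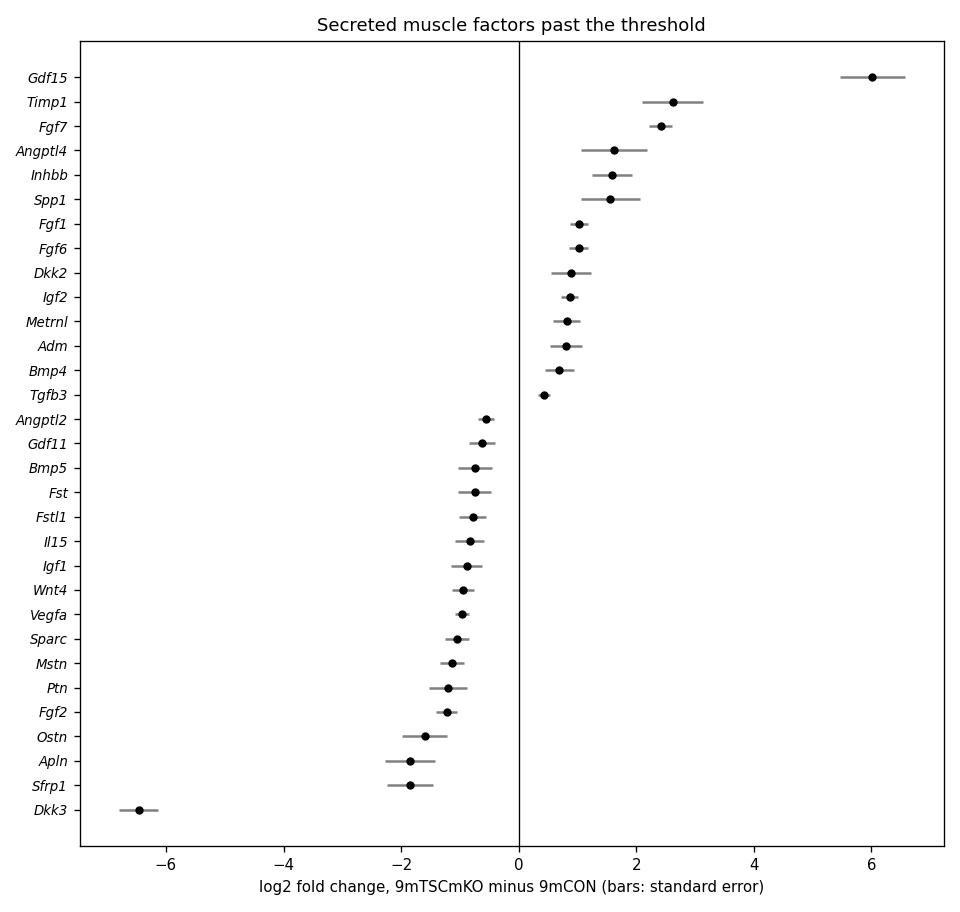
Log2 fold change (x axis, 9mTSCmKO minus 9mCON) with its standard error for the secreted muscle factors that passed an adjusted p of 0.05, ordered by size. Gdf15 stands at 6.02 and Dkk3 at -6.46, and Mstn at -1.14.

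Extracellular matrix genes were lower. Of 23 collagen genes 16 fell, 12 by at least 2-fold, and 1 rose, with a median of -1.12. Col3a1, a fibrillar collagen, was at 174, 136, 177, 131 and 302 CPM in 9mCON and 115, 50.2, 86.0, 28.2 and 73.8 CPM in 9mTSCmKO (-1.38, SE 0.339, adjusted p = 0.00147). Col15a1 fell from 34.6 ± 13.1 CPM to 13.1 ± 3.78 CPM (-1.40, SE 0.271, adjusted p = 8.75e-05). The basement membrane chain Col4a4 fell from 5.14 ± 1.43 CPM to 1.51 ± 0.750 CPM (-1.77, SE 0.280, adjusted p = 3.41e-06), while Col22a1, a collagen of tissue junctions, rose from 1.16 ± 0.463 CPM to 2.50 ± 0.897 CPM (1.09, SE 0.314, adjusted p = 0.0059). Without 9mCON replicate 5, the library with the highest collagen sum, 8 of the falls passed. Of 28 other matrix genes 14 fell and 2 rose. Without 9mCON replicate 2, and also with both groups fitted alone, 1 rose. Fibronectin (Fn1) fell from 66.2 ± 41.2 CPM to 20.8 ± 9.96 CPM (-1.67, SE 0.394, adjusted p = 0.00101). Fibrillin 1 (Fbn1) fell from 64.6 ± 30.8 CPM to 22.7 ± 7.15 CPM (-1.51, SE 0.328, adjusted p = 0.000416). Lox, the enzyme that cross-links collagen, went the other way and was at 11.8, 8.83, 14.1, 10.8 and 28.9 CPM in 9mCON and 33.8, 59.1, 36.9, 36.6 and 65.2 CPM in 9mTSCmKO (1.63, SE 0.296, adjusted p = 3.54e-05).

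Markers of the cells that make matrix were lower too. Of 7 fibroblast and fibro-adipogenic markers 6 fell and none rose (433 to 872 CPM summed in 9mCON and 127 to 472 CPM in 9mTSCmKO), but this list shares Col1a1 and Col3a1 with the collagens. Of the 5 markers that are not collagens 4 fell, and their sum was 185 to 257 CPM in 9mCON and 73.2 to 142 CPM in 9mTSCmKO. These sums did not overlap. Of 7 tendon markers, of which Fmod is also among the other matrix proteins, 4 fell (89.6 to 526 against 60.9 to 135 CPM), none without 9mCON replicate 5, which held the highest sum. Falls were also seen in 2 of 6 endothelial, 2 of 8 Schwann cell, 2 of 7 adipocyte and 3 of 6 smooth muscle markers. Leaving out 1 library gave 1 to 3 endothelial, 0 to 4 Schwann cell, 1 or 2 adipocyte and 2 to 4 smooth muscle falls, and with both groups fitted alone 5 adipocyte markers were lower. Of 9 macrophage markers 7 did not pass, 1 rose and 1 fell, a fall that did not pass with both groups fitted alone or in 4 of the 10 fits without 1 library. Further, 1 of 6 satellite cell markers rose, and none of 5 erythroid markers passed, although 4 were lower without 9mCON replicate 4 or 5 and 5 without 9mTSCmKO replicate 3. Their summed level was 355 to 7062 CPM in 9mCON, highest in replicate 1, and 275 to 1196 CPM in 9mTSCmKO. The 1 T cell and neutrophil marker that was tested did not pass, and the others did not reach 1 CPM in 5 libraries. No tested marker was at 0 in a whole group, and the part of these cells in the matrix result was not tested. Of 7 muscle fiber markers 2 rose and 4 fell, with a summed level of 91320 to 108700 CPM in 9mCON and 56820 to 71480 CPM in 9mTSCmKO. These groups did not overlap, and the fallen markers were Myh4, titin (Ttn), creatine kinase (Ckm) and skeletal actin (Acta1). Of these falls, 2 passed without 9mCON replicate 5 and 2 with both groups fitted alone.

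**Figure D5:**
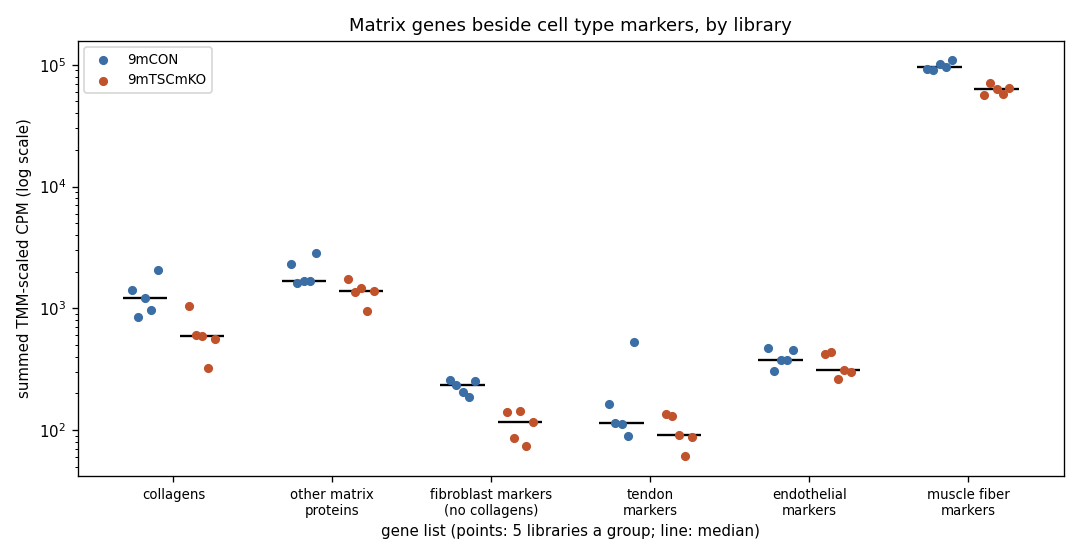
Summed TMM-scaled CPM (log scale) of collagens, other matrix genes and 4 marker lists in each library of 9mCON and 9mTSCmKO, with points for libraries and a line for the median. The sum of the fibroblast markers, drawn without Col1a1 and Col3a1, had a median of 234 CPM in 9mCON and 116 CPM in 9mTSCmKO, and the collagen sum 1208 and 588 CPM.

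The genes with the largest changes overall lay mostly outside these lists. Uchl1 (ENSMUSG00000029223, protein-coding, chromosome 5, 66676091 to 66687234, GRCm38), a ubiquitin hydrolase of neurons, was at 3.72, 2.79, 1.71, 2.02 and 2.27 CPM in 9mCON and 135, 73.5, 279, 90.3 and 97.7 CPM in 9mTSCmKO (5.75, SE 0.377, adjusted p = 1.78e-14). Map7d2, a microtubule-binding protein, rose from 0.779 ± 0.282 CPM to 37.5 ± 11.8 CPM (5.58, SE 0.346, adjusted p = 1.39e-15). Nup62cl rose from 0.0768 ± 0.0734 CPM to 5.77 ± 3.71 CPM (6.14, SE 0.593, adjusted p = 9.51e-11). All 3 were at a low level in 9mCON.

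Both Tcfl5, a basic helix-loop-helix transcription factor, and Gsta1, a glutathione transferase, were hardly counted in 9mCON. Tcfl5 had 1 count in 9mCON and 693 in 9mTSCmKO (ratio 589, 95% counting interval 105 to 23290), and the 1 count was in 9mCON replicate 5. Gsta1 had 3 and 487 counts (ratio 138, interval 46.9 to 671), but 92.9% of its 31-base stretches occur in other genes of the table, so that reads may belong to a close copy. The long non-coding RNA Gm26870 was at 199, 62.7, 62.0, 42.1 and 39.9 CPM in 9mCON and 39106, 7599.7, 3696, 6477 and 9096 CPM in 9mTSCmKO (7.34, SE 0.542, adjusted p = 4.97e-13). It was highest in 9mTSCmKO replicate 1, the library that stood apart in its correlation, and its log2 fold change was 6.38 without that library and 7.998 without 9mCON replicate 1.

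On the falling side, Fgfbp1 (ENSMUSG00000048373, protein-coding, chromosome 5, 43978858 to 43981779, GRCm38), a carrier that releases fibroblast growth factors from the matrix, was at 7.85, 8.68, 9.83, 6.60 and 5.47 CPM in 9mCON and 0, 0.0588, 0.223, 0.0577 and 0.350 CPM in 9mTSCmKO (-5.64, SE 0.495, adjusted p = 1.01e-11). Without 9mTSCmKO replicate 5 its log2 fold change was -6.40. Cntfr, the receptor subunit for ciliary neurotrophic factor, was at 40.3, 62.5, 61.6, 53.7 and 60.7 CPM in 9mCON and 8.06, 4.47, 3.07, 2.25 and 2.32 CPM in 9mTSCmKO (-3.79, SE 0.368, adjusted p = 2.99e-10). Cbr2, a carbonyl reductase, fell from 36.6 ± 2.82 CPM to 3.71 ± 0.913 CPM (-3.30, SE 0.261, adjusted p = 8.29e-13). Tph1, which makes the precursor of serotonin, fell from 12.5 ± 3.25 CPM to 1.36 ± 0.535 CPM (-3.18, SE 0.337, adjusted p = 1.05e-09). Efcab6, an EF-hand protein, fell from 25.3 ± 2.0 CPM to 3.06 ± 1.04 CPM (-3.06, SE 0.190, adjusted p = 1.39e-15). The galactosidase-like Glb1l2 changed by -2.98 (adjusted p = 1.22e-06), or by -3.83 without 9mTSCmKO replicate 1, and the non-coding 2310015K22Rik by -3.19 (adjusted p = 9.06e-09).

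Whether these changes differ between 9 and 3 months was tested as an interaction in the same fit, against the effect of Tsc1 loss in vehicle-treated mice of 3 months with 5 libraries a group. Of all genes 669 (4.94%) passed, and 310 with these 4 groups fitted alone. Of the slow-fiber list 6 of 13 passed, of calcium release 8 of 20, of junction genes 9 of 28 and of secreted factors 7 of 60. Myl2 rose by 2.03 at 3 months and Sln changed by -0.14, against 5.04 and 4.02 at 9 months (interaction 3.01, SE 0.629, adjusted p = 0.00371 and 4.16, SE 0.467, adjusted p = 1.36e-07). Myostatin changed by 0.0012 at 3 months (interaction -1.14, SE 0.289, adjusted p = 0.0159). Uchl1 (0.57 at 3 months, interaction 5.17, SE 0.510, adjusted p = 2.49e-08) and Runx1, a transcription factor induced by denervation (0.05, interaction 2.17, SE 0.332, adjusted p = 6.64e-05), changed more at 9 months as well. Large changes that did not pass include Aqp4, at -6.87 at 3 months and -6.11 at 9 months (interaction 0.76, SE 0.431, adjusted p = 0.333), Igfn1 at 5.16 and 4.15 (-1.02, SE 0.510, adjusted p = 0.268) and Gm26870 at 8.20 and 7.34 (-0.85, SE 0.587, adjusted p = 0.444), and each had its larger value at 3 months. Cntfr was at -3.51 at 3 months (-0.28, SE 0.477, adjusted p = 0.8) and the light chain Myl4 at 2.88 (-0.13, SE 0.344, adjusted p = 0.875).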

How the data were processed

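Poly(A) RNA of the EDL was sequenced as single-end directional reads of 50 nt. Per the labels and the methods of the study, the authors trimmed reads with Cutadapt 1.9.1 and quantified them with kallisto 0.43.1 against the GRCm38 transcripts of Ensembl 92, giving a read that fits several transcripts to each in part. The deposited table of estimated counts holds whole numbers per gene, and a second deposited table holds TPM, which was used for myosin shares alone.

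Genes with 1 CPM or more in 5 or more of 40 libraries were kept, counts were scaled by TMM, and 8 group means were fitted with robust quasi-likelihood in edgeR 4.0.16 (R 4.3.3), with Benjamini-Hochberg adjustment over 13543 genes. DESeq2 1.42.0, upper-quartile and RLE scaling, no filter, both groups alone, insert size as a term, the replicate number as a block and leaving out each library were tried as alternatives. Samples were grouped by label, and no batch is labelled. Mean insert size was 223 to 289 nt in 9mCON and 225 to 308 nt in 9mTSCmKO. Counts of any 2 replicates differed by more than counting noise, so each library counts as 1 sample. Counts of 13543 genes were simulated for 9mTSCmKO against 9mCON, few of them changed and with the same spread in all groups. Of genes changed by a log2 value of 1, 78% were recovered, and of those changed by 2, 95%. The data held a far larger share of changed genes, so recovery there can differ.

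The members and gene lists were chosen with earlier results of these data known. Named genes were Tsc1, the 10 largest rises and 10 largest falls past the threshold with a mean of 5 CPM or more in the higher group and no overlap, the 3 largest such changes and the largest called change against the majority in each of 43 lists, all measured myosin heavy chains and IGF binding proteins, and every secreted factor past the threshold. Tnnt1, Tnnc1, Tpm3, Casq2, Atp2a1, Ryr1, Slc2a4, Ppargc1a, Fbxo32, Trim63, the genes whose promoter sequence is shown and the metabolic, receptor, channel and signalling genes given after the limits were chosen after their values were seen. Symbols without an entry in the table were not analysed here, and some genes that meet the rule are not reported here. Positions are from GENCODE M21 (GRCm38). Promoter sequences are from RefSeq (GRCm38.p6), where 10375 of 13523 tested symbols had an entry. The 31-base stretches that a gene shares with others were counted in the GENCODE M21 transcripts. Counting intervals cover counting error only.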

Additional observations from a re-analysis of the deposited data

Results flagged for a closer look

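In 32 of 208 named genes 1 library lay far from the other 4 of its group, 34 libraries in 416 groups (8.17%), with 19 in 9mCON and 15 in 9mTSCmKO. For normal and independent values about 1 in 20 groups would be flagged. The groups share the same libraries and normality was not tested, so no excess can be read from the share. Values below are TMM-scaled CPM of the library that lay apart. 9mCON replicate 1 was the highest library of its group for Gm26870 (199), Bmp4 (7.91) and Ptn (9.63). 9mCON replicate 1 was the lowest library of its group for Afg3l2 (56.4) and Fbxo30 (16.5). 9mCON replicate 2 was the highest library of its group for Stbd1 (40.1), Ndufs7 (296), Sat1 (52.4), Eif4a1 (111), Rpl3l (516), Dnajb1 (32.8), Gpx3 (521) and Casq2 (30.3). 9mCON replicate 2 was the lowest library of its group for Per3 (20.7). 9mCON replicate 5 was the highest library of its group for Tcfl5 (0.0517), Col3a1 (302), Fn1 (139), Lox (28.9) and Fbn1 (119). 9mTSCmKO replicate 1 was the highest library of its group for Gm26870 (39110), Utp20 (8.43), Edem1 (23.2), Dkk2 (78.3) and Col1a1 (217). 9mTSCmKO replicate 3 was the highest library of its group for Krt8 (35.0), Mybph (29.2), Nars (268), Trib3 (10.7), Dnajb1 (10.8), Gadd45a (332), Sqstm1 (2518), Tnfrsf23 (49.6) and Cish (4.30). 9mTSCmKO replicate 3 was the lowest library of its group for Fbxo32 (655).

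In 54 named genes the effect of Tsc1 loss differed between 9 and 3 months by the interaction test, with an adjusted p under 0.05 over all genes, and each of the 54 differences had the sign of the 9-month effect, which the choice of genes by that effect largely fixes. Values below are the log2 difference between the 9-month and the 3-month effect. It was positive for Gsta1 (6.56), Map7d2 (5.22), Uchl1 (5.17), Krt18 (4.69), Nup62cl (4.62), Sln (4.16), Myl2 (3.01), Ankrd1 (2.94), Tnni1 (2.76), Timp1 (2.58), Kcnk3 (2.52), Pdk3 (2.27) and Perp (2.25). Smaller positive differences were seen for Runx1 (2.17), Atp2a2 (2.11), Psat1 (2.02), Stbd1 (1.89), Ncam1 (1.72), Inhbb (1.68), Fgf7 (1.62), Gk (1.58), Casq2 (1.57), Hk1 (1.54), Asns (1.47), Tnfrsf23 (1.35) and Igf2 (1.32). Stbd1 changed direction, with a log2 fold change of -1.18 at 3 months (adjusted p = 3.86e-08) and 0.71 at 9 months. Ncam1 (-0.38) and Igf2 (-0.45) were among other genes with a negative log2 fold change at 3 months. The smallest positive differences were those of Tnfrsf22 (1.13), Ldhb (1.01), Gbe1 (0.97), Utp20 (0.95), Atp6v1h (0.92), Pgd (0.88), Etv5 (0.83), Slc2a1 (0.80), Bag3 (0.74), Tgfb3 (0.62) and Nars (0.52). It was negative for Dkk3 (-3.01), Fgfbp1 (-2.37), Slc36a1 (-1.54), Hlf (-1.36), Col4a4 (-1.34), Cbr2 (-1.29), Col15a1 (-1.23), Mstn (-1.14), Slc37a4 (-0.93), Esr1 (-0.90), Itpr1 (-0.88), Ampd1 (-0.82) and Htra1 (-0.78). Smaller negative differences were seen for Casq1 (-0.76), Clcn1 (-0.75), Atp2a1 (-0.70) and Atg9a (-0.54).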

How the results depend on the processing

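Fitting both groups alone called 2710 genes, 1486 higher and 1224 lower, and fitting the 4 vehicle groups alone called 310 in the interaction. Fewer libraries set the spread in these fits, and the reason for the lower counts was not tested. Leaving out 1 library gave 4504 to 5256 called genes, 2299 to 2657 higher, 2042 to 2599 lower and 471 to 996 in the interaction, with the log2 fold change of Tsc1 between -1.68 and -1.34. The other alternatives gave 5043 to 5466 called genes and 486 to 902 in the interaction. Of 200 named genes past the threshold, 32 lost the call in at least 1 alternative, and those not described above were lost with both groups fitted alone (Paox, Rrp9, Tfe3 and Igf1) or were Col1a1, lost in 9 of 17. Among the named genes, changes of sign occurred only in uncalled ones. Leaving out 1 library gave -0.0627 to 0.336 for Myh1 (below 0 without 9mCON replicate 1 or 2 or 9mTSCmKO replicate 2), -1.195 to 0.237 for Myh13 (above 0 without 9mCON replicate 4) and -0.139 to 0.073 for Igfbp5 (above 0 without 9mCON replicate 3 or 5 or 9mTSCmKO replicate 1). The cause of these changes was not tested. Replicate numbers did not pair the samples, with correlations of same-numbered deviations from -0.363 to 0.289, and not every sample correlated best with its own number. The fit with the replicate block called 5394 genes and 902 in the interaction, and among the named genes Angptl4 lost its call and Igfals, not called in the fit without the block, passed. Depth of at least 12234422 counts limits genes near 0 in 1 group, such as Krt8, Tcfl5 and Gsta1, to wide intervals.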

Other observations

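Further genes past the threshold were chosen after their values were seen. The muscle fructose bisphosphatase Fbp2 fell from 33.2 ± 11.2 CPM to 5.65 ± 2.87 CPM (-2.55, SE 0.299, adjusted p = 1.31e-08) and the glucose 6-phosphate translocase Slc37a4 from 97.9 ± 14.7 CPM to 34.8 ± 6.18 CPM (-1.49, SE 0.166, adjusted p = 2.99e-09), with the hexose transporter Slc2a12 lower as well, from 13.3 ± 1.80 CPM to 3.41 ± 1.23 CPM (-1.96, SE 0.184, adjusted p = 5.07e-11). The pyruvate dehydrogenase kinase Pdk3 rose from 0.902 ± 0.405 CPM to 12.1 ± 3.56 CPM (3.73, SE 0.258, adjusted p = 2.18e-14) and glycerol kinase (Gk) from 1.895 ± 0.398 CPM to 9.66 ± 2.15 CPM (2.34, SE 0.259, adjusted p = 2.56e-09). The phosphoglucomutase Pgm2 was at 1327 ± 183 CPM in 9mCON and 697 ± 140.0 CPM in 9mTSCmKO (adjusted p = 2.18e-06).

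Tnfrsf12a, the receptor for TWEAK in the tumor necrosis factor receptor family, was at 5.49, 10.7, 7.31, 16.0 and 6.66 CPM in 9mCON and 42.9, 38.8, 85.3, 66.9 and 52.5 CPM in 9mTSCmKO (2.63, SE 0.397, adjusted p = 2.35e-06). The decoy receptors Tnfrsf22 (2.93, adjusted p = 1.27e-15) and Tnfrsf23 (3.39, adjusted p = 2.34e-16) rose, and they share 38.3% and 26.7% of their 31-base stretches with other genes, mostly with each other. The survival factor Bcl2 rose from 6.78 ± 1.62 CPM to 50.3 ± 12.3 CPM (2.88, SE 0.251, adjusted p = 1.05e-11). A pair of genes of potassium currents, Kcnip2 from 0.445 ± 0.230 CPM to 20.2 ± 9.01 CPM (5.44, SE 0.406, adjusted p = 2.09e-13) and Kcnk3 from 0.919 ± 0.474 CPM to 36.3 ± 12.2 CPM (5.27, SE 0.504, adjusted p = 1.73e-10), rose from near absence. On the falling side were Smad3, a transducer of transforming growth factor β, from 67.8 ± 21.1 CPM to 15.7 ± 3.34 CPM (-2.10, SE 0.197, adjusted p = 4.81e-11), Cish, a feedback inhibitor of cytokine receptors, from 19.6 ± 11.2 CPM to 2.61 ± 0.985 CPM (-2.91, SE 0.671, adjusted p = 0.000844), the growth hormone receptor Ghr from 251 ± 47.5 CPM to 143 ± 38.5 CPM (-0.81, SE 0.142, adjusted p = 1.66e-05) and the estrogen receptor Esr1 from 31.8 ± 7.88 CPM to 11.9 ± 3.64 CPM (-1.42, SE 0.181, adjusted p = 6.01e-08). Col1a1, the main chain of collagen type I, changed by -1.14 (adjusted p = 0.0425), or by -1.88 without 9mTSCmKO replicate 1.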
